A study of Mus musculus with 2 samples.

Results

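The proteasome genes of mouse bone marrow-derived macrophages were taken from the gene symbols of the deposited transcript tables. A gene was a member when its symbol began with Psma to Psmg followed by a digit and when at least 1 of its transcripts was annotated as protein-coding, which gave 50 of the 55536 genes. Of these, 49 encode proteasome subunits, activators, an inhibitor or assembly chaperones, and 1, Psmc3ip, encodes a recombination protein that shares only the name. A further 4 symbols of the same form (Psmb5-ps, Psmb6-ps, Psmb6-ps2 and Psmb7-ps2) had no coding transcript and had 0 counts in both libraries. The macrophages came from mice of strain C57BL/6J, whose age and sex were not collected, and were exposed for 30 min to a bacterial ligand at 100 ng/ml. One label names the ligand Lipid A, and the source and treatment labels name it lipoprotein A, of type protein. The 2 polyA RNA-seq libraries were numbered as biological replicates, came from separate biosamples of 1 donor record, and formed a single treated group. No untreated library was analysed here, so that no value below is an effect of the ligand.

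The proteasome is a barrel of stacked alpha and beta rings that cuts ubiquitin-tagged proteins into peptides. In the constitutive form the cutting is done by Psmb5, Psmb6 and Psmb7. In the immunoproteasome these are replaced by Psmb8, Psmb9 and Psmb10, respectively, which are built into newly assembled particles and are known to be induced by interferons. Macrophages, like other antigen-presenting cells, are known to hold both forms, and the peptides made by the immunoproteasome feed the loading of MHC class I molecules.

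The libraries held 37784941 (replicate 1) and 51904470 (replicate 2) expected counts over genes. The 7 macrophage markers all exceeded 10 TPM in each library, with Adgre1 at 800 and 710 TPM and Csf1r at 764 and 882 TPM. The T cell markers Cd8a, Cd3d, Cd3e, Cd3g and Trac stayed at or below 0.31 TPM, while Cd4 stood at 111 and 82.2 TPM. The summed level of the 6 neutrophil markers was 309 TPM in replicate 1 and 55.6 TPM in replicate 2, of which S100a8 gave 124 and 18.1 TPM and S100a9 gave 183 and 37.1 TPM, while Ly6g was at 0.06 and 0 TPM. The 6 dendritic cell markers summed to 15.0 and 10.1 TPM, and 4 of them missed 1 TPM in at least 1 library. By the test described below 5 of the 6, among them Itgax at 7.11 and 3.88 TPM, were lower in replicate 2, beside 31.1% of all genes tested. The B cell marker Cd79b was at 3.88 and 1.43 TPM. The part of these markers in the differences between the libraries below was not tested, and in bulk RNA fewer cells of a type and less RNA per cell cannot be told apart.

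Nearly all proteasome genes were detected. Of the 50 members, 48 reached 1 TPM (a level scaled by transcript length and to a fixed total) in both libraries, 45 reached 10 TPM and 15 reached 100 TPM. Together they took 0.439% and 0.429% of all TPM, and their median was 77.5 and 75.3 TPM. All 31 constitutive subunits of the core and the regulatory particle were above 10 TPM in both libraries. The 2 members that missed 1 TPM in a library were Psmb11 and Psmc3ip. Psmb11, the beta subunit of the thymus proteasome, had 0 counts in both libraries in the gene tables. That allows up to 0.0794 and 0.0578 CPM (counts scaled to the library total). A second quantification, described below, placed it at 0.0242 and 0.0474 TPM. Psma8, the alpha subunit of the testis proteasome, passed at a low level, 1.93 and 1.81 TPM. Psmc3ip was at 1.83 and 0.66 TPM, from 43.7 and 22.2 expected counts.

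**Figure D1:**
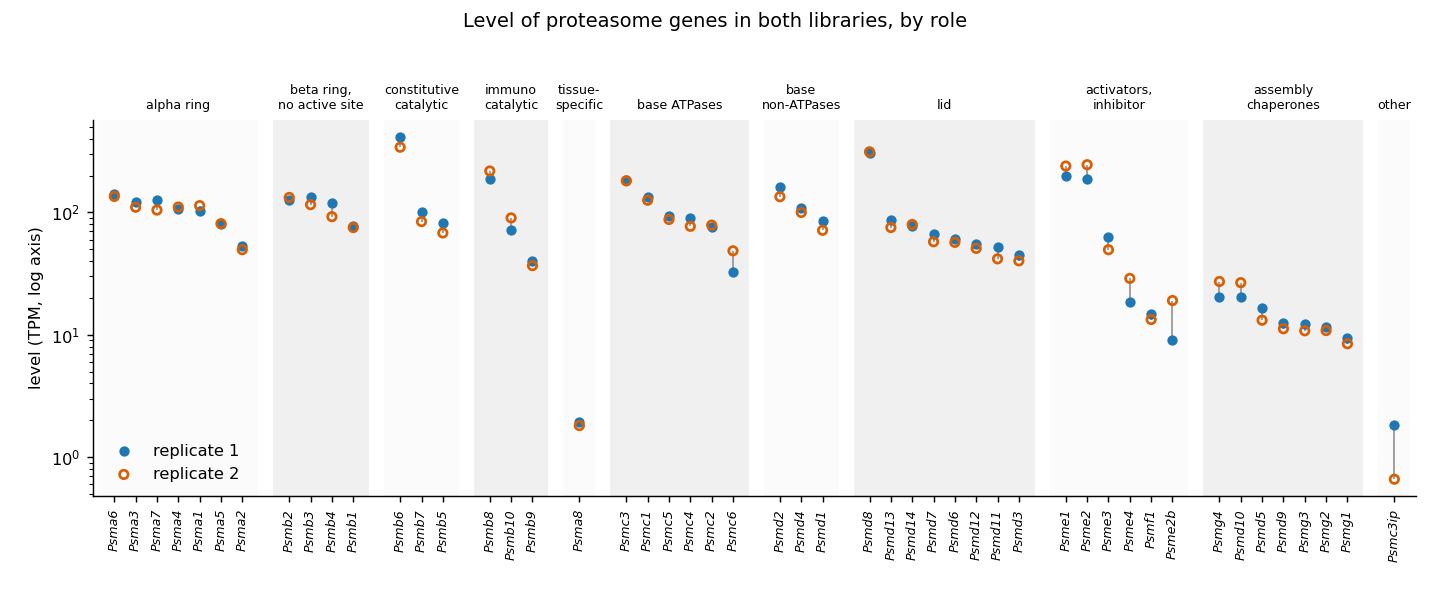
Level of each member in TPM on a log axis, grouped by role and ordered by mean level, with replicate 1 as filled and replicate 2 as open points joined by a line. Psmb11, at 0, is not drawn. Psmb6 and Psmd8 stand above the other members of their groups, and Psma8 and Psmc3ip lie near 1 TPM.

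In the core, the alpha ring, which forms the gate and holds the regulatory caps, had a median of 108 ± 3.24 TPM (SD, n = 2). Psma6 was the highest of its 7 genes at 142 and 135 TPM. Psma2 was the lowest at 53.0 and 49.6 TPM, and the others were Psma1, Psma3, Psma4, Psma5 and Psma7. The 4 beta subunits without an active site lay between 76.2 TPM for Psmb1 (77.2 and 75.2 TPM) and 129 TPM for Psmb2 (126 and 133 TPM) on average, with Psmb3 and Psmb4 between them. Psmb6, the constitutive subunit that cuts after acidic residues, stood apart at 416 and 341 TPM. The 14 constitutive core genes spanned a 7.84-fold and a 6.88-fold range in replicates 1 and 2. Without Psmb6 the range was 2.67-fold and 2.73-fold. The standard deviation of log2 TPM between these 14 genes was 0.67 and 0.64, and the median distance of a gene from itself in the other library was 0.14 on the same scale. The genes thus differed from each other by more than the libraries did.

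The regulatory particle, which binds, unfolds and feeds in the substrate, was of like level. Among its 6 ATPases, the motor of the particle, Psmc3 was the highest at 183 and 181 TPM and Psmc6 the lowest at 32.7 and 48.6 TPM, with Psmc1, Psmc2, Psmc4 and Psmc5 between 77.4 and 130 TPM on average. Of the 3 other base subunits, the scaffold Psmd2 was at 161 and 134 TPM, the scaffold Psmd1 at 84.7 and 71.5 TPM and the ubiquitin receptor Psmd4 at 108 and 100.0 TPM. In the lid, which removes ubiquitin chains, Psmd8 was far above the rest at 304 and 313 TPM and Psmd3 was the lowest at 44.6 and 40.2 TPM. The 7 lid genes other than Psmd8, which include the deubiquitinase Psmd14, stayed within a 1.95-fold and a 1.98-fold range. Psmb6 and Psmd8 thus were the 2 genes of highest mean level among all members, at 379 ± 52.5 and 308 ± 6.22 TPM (SD, n = 2), although both belong to particles in which each subunit is present in equal number. The level of an mRNA need not follow the amount of its protein, and no protein was measured.

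The 7 assembly chaperones, which are needed to build the particle and then leave it, were the lowest of the role groups apart from the tissue-specific core genes and Psmc3ip, with a median of 11.8 ± 0.877 TPM (SD, n = 2). Psmg4, a chaperone of the core, was at 20.4 and 27.3 TPM and Psmd10, a chaperone of the base, at 20.5 and 26.7 TPM, too close to be ranked. Psmg1, also a chaperone of the core, was the lowest at 9.34 and 8.45 TPM. Psmd5, which serves the base, was at 16.6 and 13.2 TPM, and Psmg2, Psmg3 and Psmd9 made up the rest. A further maturation factor outside the symbol rule, Pomp, was at 303 and 355 TPM.

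All 3 catalytic subunits of the immunoproteasome were present, at unequal levels. Psmb8, the replacement of Psmb5, was the highest at 189 and 218 TPM. Psmb10, the replacement of Psmb7, was at 71.3 and 90.3 TPM. Psmb9, the replacement of Psmb6, was the lowest at 39.8 and 36.7 TPM. The constitutive partners were at 81.7 and 68.0 TPM for Psmb5, 416 and 341 TPM for Psmb6 and 100 and 84.2 TPM for Psmb7. The 3 values of each set therefore fell in opposite order: the pair with the highest constitutive subunit had the lowest immunoproteasome subunit.

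**Figure D2:**
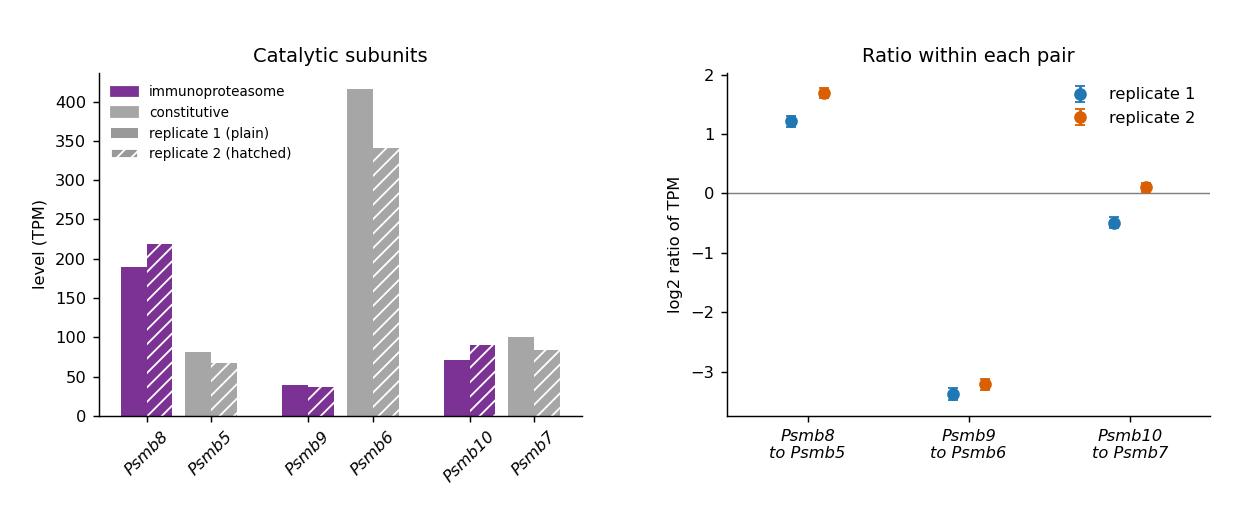
Left, TPM of the 6 catalytic genes, immunoproteasome in purple and constitutive in grey, replicate 1 plain and replicate 2 hatched. Right, log2 ratio of TPM within each pair with 95% intervals for counting error. Psmb8 exceeds Psmb5 in both libraries and Psmb9 lies far below Psmb6 in both. The ratio of Psmb10 to Psmb7, counted over all transcripts, changes side between them.

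Psmb8 exceeded Psmb5 by 2.32-fold in replicate 1 and 3.21-fold in replicate 2, with 95% counting intervals of 2.17 to 2.47 and 3.03 to 3.40. Psmb9 was below Psmb6 by 10.4-fold and 9.29-fold, a ratio of 0.0957 (0.0892 to 0.103) and 0.108 (0.101 to 0.114), whose intervals overlap between the libraries. For Psmb10 to Psmb7 the ratio was 0.711 (0.666 to 0.759) and 1.07 (1.02 to 1.13). As log2 ratios the means were 1.45 ± 0.33, -3.30 ± 0.12 and -0.20 ± 0.42 (SD, n = 2). The first 2 therefore lay further from equality than the distance between the libraries, and the third did not. In sum the 3 immunoproteasome genes gave 300.1 and 345 TPM against 598 and 494 TPM for the 3 constitutive genes. The ratio was 0.502 and 0.699, so that 33.4% and 41.2% of the catalytic mRNA, over all transcripts, was of the immunoproteasome kind. Over coding transcripts alone the mean log2 ratio of the sums was lower, at -0.99 ± 0.42 in place of -0.75 ± 0.34 (SD, n = 2).

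Each particle needs 1 of the 2 genes of a pair at each position, and the sums of the pairs were not equal. Psmb8 and Psmb5 together were 2.21 and 2.75 times the median of the non-catalytic Psmb1 to Psmb4. For Psmb9 and Psmb6 the sum was 3.72 and 3.63 times that median, and for Psmb10 and Psmb7 it was 1.40 and 1.68 times. The lowest sum and the highest thus differed by more than the libraries did, and Psmb6 alone gave most of the highest.

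Psmb8 and Psmb9 lie within the MHC region of chromosome 17 (mm10), at 34197721 to 34201454 on the forward and 34181987 to 34187764 on the reverse strand, next to the peptide transporter genes Tap2 and Tap1. Psmb10 lies on chromosome 8 at 105935735 to 105938444. The 300 bases around the RefSeq start of Psmb9 (chr17:34187281-34187580, reverse strand) share 275 bases with the window of Tap1, which is transcribed the other way, so that a single stretch of DNA carries both starts. It is shown with the windows of Psmb8 (chr17:34197945-34198244, forward strand) and of the activator gene Psme1 (chr14:55578244-55578543, forward strand), since among the genes of the immune form and its activator ring these windows held a GAAANNGAA or TTCNNNGAA match or a second start. Each runs 5′ to 3′ on the strand of the gene, from 250 bases before the start to 50 after it, from RefSeq on GRCm38.p6. Capitals mark that match, which the Psmb9 window does not hold.
Psmb9: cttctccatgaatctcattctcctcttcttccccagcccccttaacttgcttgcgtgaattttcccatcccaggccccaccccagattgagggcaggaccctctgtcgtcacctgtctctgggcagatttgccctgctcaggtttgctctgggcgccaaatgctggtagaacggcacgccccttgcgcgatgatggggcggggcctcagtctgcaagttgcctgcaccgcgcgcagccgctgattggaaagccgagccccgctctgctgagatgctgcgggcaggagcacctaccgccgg
Psmb8: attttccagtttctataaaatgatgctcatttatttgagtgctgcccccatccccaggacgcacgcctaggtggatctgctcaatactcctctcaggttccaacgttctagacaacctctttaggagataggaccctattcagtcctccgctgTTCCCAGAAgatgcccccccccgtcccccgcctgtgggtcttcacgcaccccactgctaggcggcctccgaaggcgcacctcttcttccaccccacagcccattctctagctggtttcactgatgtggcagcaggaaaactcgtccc
Psme1: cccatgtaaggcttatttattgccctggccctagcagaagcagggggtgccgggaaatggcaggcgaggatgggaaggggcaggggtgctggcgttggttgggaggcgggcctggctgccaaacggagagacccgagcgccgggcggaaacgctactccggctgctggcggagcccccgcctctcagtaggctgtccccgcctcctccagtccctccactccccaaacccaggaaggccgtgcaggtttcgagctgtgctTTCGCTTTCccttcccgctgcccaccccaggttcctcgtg

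The motifs searched on both strands were GAAANNGAA (the core bound by interferon regulatory factors), TTCNNNGAA (the gamma-activated site of interferon signalling), GGGANTTTC (a core bound by NF-kB), TGANNNNGC (the core bound by the Nrf factors) and CCAAT. RefSeq windows existed for 42 of the 50 members. A member with more than 1 window was counted when any of them matched, while the share over all windows counts each window once. Psmb8 held TTCCCAGAA with its first base 97 bases before the start, and TTCNNNGAA was in 3 of the 42 members' windows and in 8.30% of all 32851 windows. In Psme1 the match was TTCGCTTTC, the reverse strand of GAAANNGAA, just after the RefSeq start. The main transcript Psme1-208 starts upstream of that, at position 55578360 within the window, so that the match lies inside the transcript. That motif was in 7 of 42 members (Psmb3, Psmb4, Psmc2, Psmd4, Psmd9, Psme1 and Psmg4) and in 8.56% of all windows. For Psmc2 it lay at a RefSeq start 1464 bases downstream of the start of the main transcript, Psmc2-201. TGANNNNGC, the core of the factor Nfe2l1 that is known to raise proteasome genes, was in 24 of 42 members and in 41.3% of all windows. GGGANTTTC was in 1 of 42, Psma6, against 1.11% of all windows, and CCAAT in 15 of 42 against 37.4%. The main transcript Psma6-201 starts 14553 bases downstream of the RefSeq start with the GGGANTTTC match, and the window at Psma6-201 held none. A match is only a run of letters. The main transcripts in these cells, Psmb8-203 and Psmb9-204, start 474 and 434 bases upstream of the RefSeq starts and so outside the windows shown.

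The activators open the barrel in place of, or together with, the regulatory particle. Psme1 and Psme2, which form the interferon-inducible ring that works with the immunoproteasome, were of nearly equal level, Psme1 at 197 and 239 TPM and Psme2 at 186 and 246 TPM, a ratio of 1.06 and 0.975. Both were above Psmb10 and Psmb9 in both libraries. Psme3, the subunit of the nuclear ring, was at 63.5 and 49.6 TPM, 3.11-fold and 4.83-fold below Psme1. Psme4, a large single-chain activator, was at 18.5 and 28.9 TPM, and the inhibitor Psmf1 at 14.9 and 13.3 TPM. Psme2b, a second gene of the Psme2 kind on chromosome 11, was at 9.10 and 19.1 TPM.

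Psme2b (chr11:48945354-48946190) and Psme2-208, the main transcript of Psme2, align without gaps over 794 bases and are identical at 789 of them, with a longest identical run of 341 bases. The lines below give 60 coding bases of each, transcript positions 684 to 743 and 558 to 617 in GENCODE M21, chosen because the 3 capitals there are the letters that differ, by which a read can be told to come from one gene or the other.
Psme2: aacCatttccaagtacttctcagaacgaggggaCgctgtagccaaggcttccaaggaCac
Psme2b: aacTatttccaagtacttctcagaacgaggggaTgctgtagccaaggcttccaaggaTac
The level of Psme2b relative to Psme2 was 0.0490 and 0.0776 in the gene tables and 0.0698 and 0.128 in the second quantification, and how reads were divided between the 2 genes was not tested. Psme2b also shares 41 exon bases on the same strand with 9930111J21Rik1, at 12.5 and 24.8 TPM.

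The second quantification, a transcript table in the layout kallisto writes, was summed per gene and set against the gene tables. The ratio of gene table to second table had a median of 1.25 and 1.17 over the 49 members above 0 in the gene tables. The order of these members was nearly the same, with a Spearman rho across genes of 0.993 in each library. Psma3 was the only member whose 2 mean levels differed by more than 1.5-fold. It was at 121 and 110 TPM in the gene tables and at 66.3 and 67.7 TPM in the second table.

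**Figure D3:**
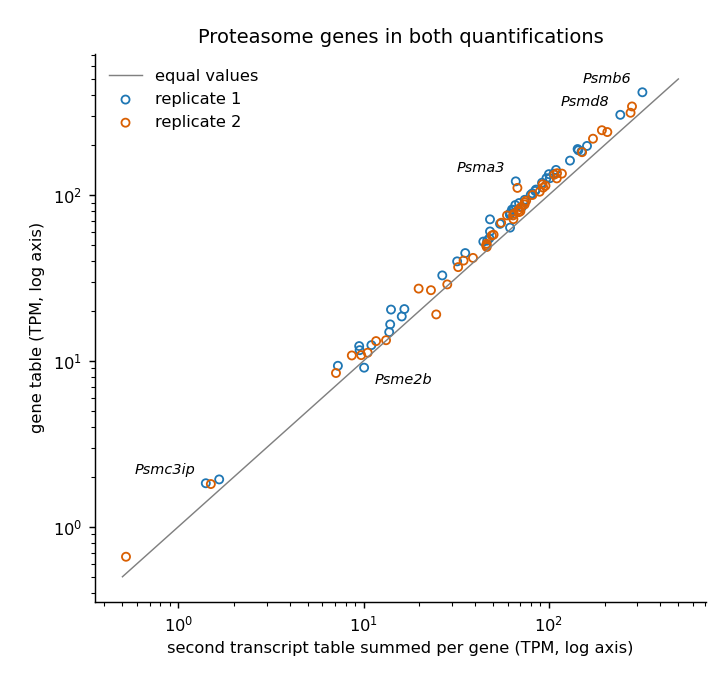
Gene-table TPM against second-table TPM for the 49 members above 0 in the gene tables, both axes log. Replicate 1 is in blue and replicate 2 in orange, with a line at equal values. Most points lie slightly above the line, Psma3 lies furthest above it and Psme2b below it.

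Psma3 has a processed pseudogene, Gm13835 (chr6:31141979-31142663), that is identical to its transcript Psma3-204 over all of the 685 bases of the copy. The 60 bases below, positions 207 to 266 of Psma3-204 and 143 to 202 of Gm13835, are shown because no letter in them tells the genes apart.
Psma3: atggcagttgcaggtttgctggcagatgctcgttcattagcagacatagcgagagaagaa
Gm13835: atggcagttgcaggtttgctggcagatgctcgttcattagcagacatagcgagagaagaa
Gm13835 was at 4.04 and 2.75 TPM in the gene tables and at 41.5 and 34.5 TPM in the second table. Psma3 was thus lower and Gm13835 higher in the second table in both libraries, and how reads were divided between the 2 genes was not tested. The level of Psma3 is therefore uncertain. Of all members, 25 shared no run of 31 bases with another gene, 13 shared 10% or more of such runs and 6 shared 50% or more (Psma3, Psma5, Psmb3, Psmb5, Psme2 and Psme2b). The copies of Psmb5, of which Gm3375 is the closest, stood at or below 0.11 TPM in both quantifications, unlike Gm13835.

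For most members 1 coding transcript gave most of the mRNA, with 80% or more in at least 1 library. The exceptions, with under 80% in both libraries, were Psma3, Psma8, Psmb8, Psmc3, Psmd4, Psmd5, Psmd11, Psmd13, Psmf1 and Psmg4. In Psmd13, a lid subunit, the main transcript was Psmd13-211, annotated as a target of nonsense-mediated decay, with 39.2% and 39.4% of the gene's TPM, while coding transcripts took 51.3% and 44.7%. The second quantification put the coding Psmd13-201 first, with 43.9% and 46.0%. In Psma3 the coding Psma3-204 took 46.6% and 27.2%, and the decay-annotated Psma3-201 took 22.1% and 39.6%. The second quantification put Psma3-203, which retains an intron, first with 42.6% and 40.6%, and coding transcripts there took 29.4% and 14%. Over coding transcripts alone the mean level of Psma3 in the main tables was 49.2 TPM in place of 116 TPM. Psmb8 had 74.9% and 77.9% in Psmb8-203, and 22.4% and 19.3% in Psmb8-205, which retains an intron and codes for no annotated protein. Outside the list above, Psmb9-204 took 79.1% and 82.0% of Psmb9, but 65.1% and 67.5% in the second quantification. There the decay-annotated Psmb9-207 took 25.6% and 25.0%, and coding transcripts took 73.4% and 71.5%. Psmc3 was divided between 2 coding transcripts, Psmc3-210 with 51.1% and 58.9% and Psmc3-202 with 47.3% and 39.9%. For the rest of the 10, the main transcript was coding and took between 45.4% and 72.0% in either library. Over coding transcripts alone the mean log2 ratio of Psmb8 to Psmb5 was 1.10 ± 0.38 (SD, n = 2), and Psmb8 was still the higher in both libraries. That of Psmb10 to Psmb7 was -0.44 ± 0.58 (SD, n = 2). Psmb10 was then the lower in both libraries, though only narrowly in replicate 2.

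**Figure D4:**
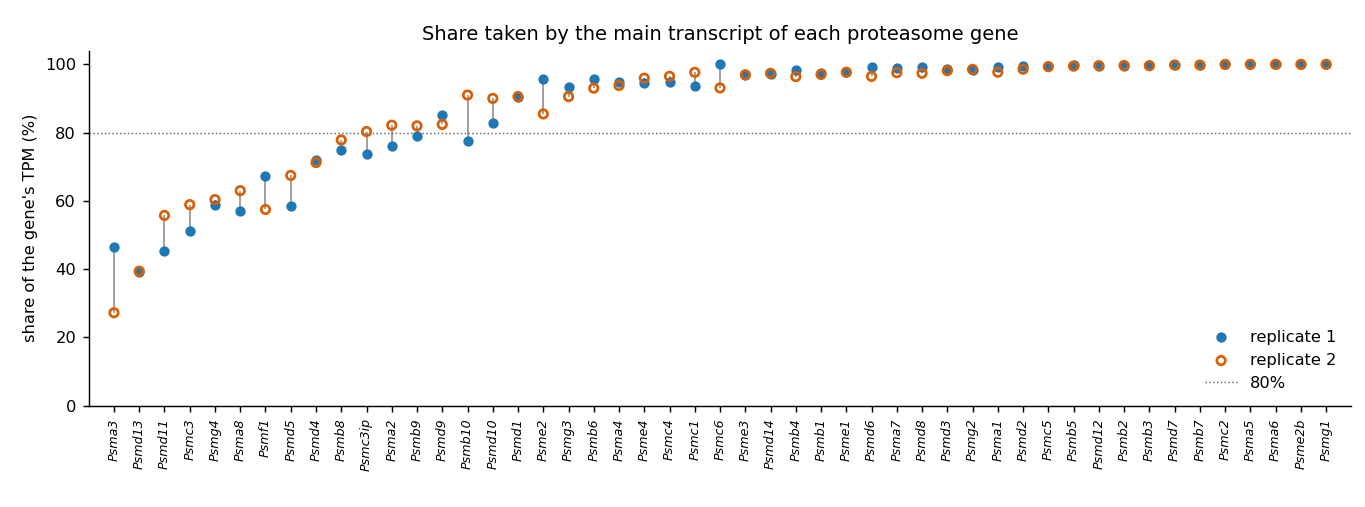
Share of each gene's TPM taken by its main transcript, in percent, for 49 members, replicate 1 as filled and replicate 2 as open points, with a dotted line at 80%. Psma3 and Psmd13 have the lowest shares, and Psma3, Psmb10 and Psmd11 show wide gaps between the libraries.

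The libraries were compared with each other, gene by gene, with an exact two-sided binomial test on counts scaled by TMM, adjusted over the 12955 genes tested. It measures whether 2 libraries of the same group differ beyond sampling noise and says nothing on the ligand. Of the 49 members tested, 7 were higher in replicate 2, beside 31.5% of all genes tested, and 31 were lower, beside 31.1%. Among genes with a mean level of at least 10 TPM, to which most members belong, 33.5% were higher and 40.8% lower. Beyond 2-fold, 0 members were higher beside 6.72% of all genes, and 1 member, Psmc3ip with a log2 difference of -1.57 (adjusted p = 5.25e-05, exact binomial test), was lower beside 3.5%. The members' median was -0.22 on the log2 scale and that of all genes at 1 TPM or more was -0.01. With library totals in place of TMM that general median moved to 0.12 and the members' median to -0.08, so that differences are read here relative to the general median, below which lay 39 of the 49 members. With library totals 10 members were higher, beside 42.9% of all genes tested, and 20 lower, beside 19.5%.

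**Figure D5:**
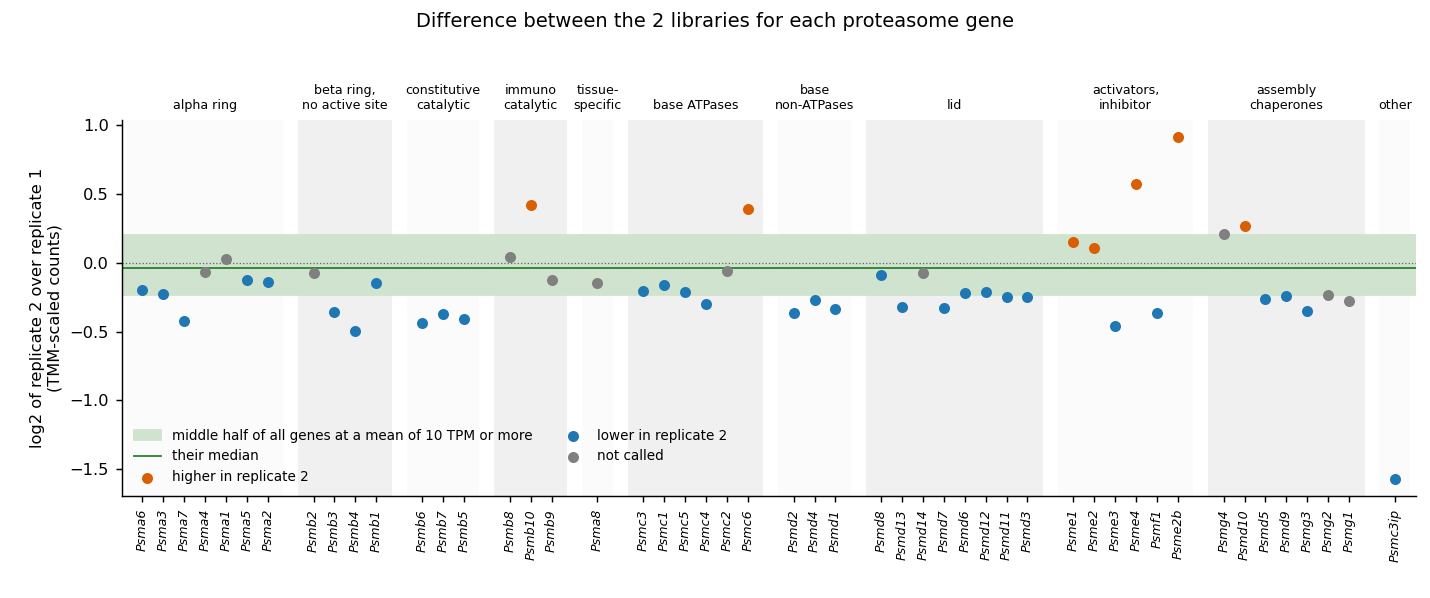
Log2 of replicate 2 over replicate 1 for the 49 members tested, by role, from TMM-scaled counts, with members called higher in orange, lower in blue and not called in grey. The green band is the interquartile range of the genes with a mean level of at least 10 TPM (-0.23 to 0.20) and the green line their median of -0.04. Constitutive subunits lie mostly low in or under the band, and Psmb10, Psmc6, Psme4, Psme2b, Psmd10 and Psmg4 lie above it.

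By role, the calls were unequal, and the difference between roles was not tested. All 3 constitutive catalytic genes were lower in replicate 2: Psmb5 by -0.41 (adjusted p = 8.03e-13, exact binomial test), Psmb6 by -0.44 (adjusted p = 1.78e-58) and Psmb7 by -0.37 (adjusted p = 1.95e-18) on the log2 scale. Of the 3 immunoproteasome genes, Psmb10 was higher by 0.42 (adjusted p = 2.61e-20), while Psmb8, at 0.05 (adjusted p = 0.222), and Psmb9, at -0.13 (adjusted p = 0.0694), did not pass. In the second quantification both were called lower, at -0.08 (adjusted p = 0.0159, exact binomial test) and -0.24 (adjusted p = 0.000204). The general median there was -0.11, so that Psmb8 lay above it and Psmb9 below it. With library totals Psmb8 was called higher, at 0.18 (adjusted p = 1.85e-07), beside a general median of 0.12. Of the 31 constitutive subunits, 25 were lower, beside 31.1% of all genes and 40.8% of those at a mean of 10 TPM or more. A further 5 did not pass, and 1, the ATPase Psmc6, was higher by 0.39 (adjusted p = 1.39e-18), beside 31.5% and 33.5%. The lower ones included 11 of the 14 core genes, led by Psmb4 at -0.50, all 3 non-ATPase base genes and 7 of the 8 lid genes. Psmd8, at -0.09, was among them with TMM scaling but stood at 0.04 with library totals. With library totals 16 of the 31 were lower and 2 higher, beside 19.5% and 42.9% of all genes, and Psma2, Psma6 and Psmb1 were among those that no longer passed.

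Among the 6 activator and inhibitor genes, 4 were higher and 2 lower in replicate 2, beside 31.5% and 31.1% of all genes. Psme4 was higher by 0.57 (adjusted p = 3.74e-68, exact binomial test) and Psme2b by 0.92 (adjusted p = 3.40e-10). Psme1, at 0.15, and Psme2, at 0.11, were also called higher but did not pass in the second quantification. There they stood at 0.03 and -0.01, above the general median of -0.11. Psme3 was lower by -0.46 (adjusted p = 1.79e-42) and the inhibitor Psmf1 by -0.36 (adjusted p = 1.49e-08). Of the 7 assembly chaperones, Psmd10 was higher, Psmd5, Psmd9 and Psmg3 were lower, and the other 3 did not pass, beside the same shares of all genes. In the second quantification 4 members were higher (Psmb10, Psmc6, Psme2b and Psme4) and 40 lower, beside 28.5% and 36.1% of the genes tested there, and the general median was itself at -0.11.

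The ratio within each catalytic pair was larger in replicate 2. From replicate 1 to replicate 2 the log2 ratio was larger by 0.47 ± 0.13 for Psmb8 to Psmb5, by 0.17 ± 0.13 for Psmb9 to Psmb6 and by 0.59 ± 0.12 for Psmb10 to Psmb7, and by 0.48 ± 0.063 for the sum of 3 over the sum of 3, where ± is the 95% counting error. A ratio within a library does not depend on the scaling between libraries. For Psmb10 to Psmb7 the value was 0.80 in the second quantification and 0.82 over coding transcripts. For Psmb9 to Psmb6 it was 0.20 in the second quantification. Over coding transcripts the log2 ratio of Psmb9 to Psmb6 differed less between the libraries, with an SD of 0.088 in place of 0.12 (n = 2). That smaller difference did not exceed the counting error given above. In the gene tables Psmb10-203, a transcript without an annotated protein, took 20.1% of Psmb10 in replicate 1 and 4.70% in replicate 2. With 2 libraries these shifts have no replicate of their own.

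Genes that work beside the proteasome were read from lists. Of 13 proteasome partners, 2 were higher and 9 lower in replicate 2, beside 31.5% and 31.1% of all genes, among them Nfe2l1, the factor of proteasome genes, at 102 and 94.6 TPM, Pomp and Zfand5, a ubiquitin-binding activator, at 117 and 101 TPM. Pomp was lower by -0.12 on the log2 scale of TMM-scaled counts, while its TPM was higher in replicate 2, so that its direction depends on the scale; the same holds for Psmd8 among the members called. Of 13 genes of ubiquitin supply and shuttling, 0 were higher and 11 lower, with Ubb the highest on average at 1005 and 1070 TPM. With library totals the partners were 4 higher and 4 lower, and the ubiquitin genes 2 higher and 6 lower, beside 42.9% and 19.5% of all genes. With TMM the 2 lists had medians of -0.13 and -0.17, beside -0.22 for the members.

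The class I loading list, which takes up the peptides, was divided. Of its 11 genes 7 were higher (B2m, H2-K1, H2-D1, Tap1, Tap2, Tapbp and Nlrc5) and 4 lower (Calr, Canx, Pdia3 and Erap1), beside 31.5% and 31.1% of all genes. B2m was the highest at 6231 and 8644 TPM, before H2-D1 at 3337 and 4106 TPM and H2-K1 at 2843 and 3362 TPM. Tap1, whose window overlaps that of Psmb9, was at 48.3 and 63.5 TPM (0.14 on the log2 scale, adjusted p = 8.41e-05, exact binomial test), while Psmb9 was at 39.8 and 36.7 TPM. The 2 genes also share 212 exon bases on opposite strands, and whether the counting used strand is not given in the sources used here. Tap2 was at 23.4 and 29.9 TPM and Nlrc5, the activator of class I genes, at 25.0 and 40.0 TPM. Of the 13 genes of the interferon signal, 7 were higher and 4 lower, beside the same shares of all genes: Irf1 stood at 150.4 and 464 TPM, and Irf8 was lower at 178 and 166 TPM. Among the members, Psmb10, Psmc6, Psme2b and Psme4 were higher in replicate 2 in both quantifications, as was Irf1. With 2 libraries, every gene higher in replicate 2 shares that library with Irf1. Of all genes tested, 31.5% were higher there in the gene tables and 28.5% in the second quantification. The calls of Psme1, Psme2, Psmb8 and Psmb9 changed with the quantification, as did the general median, as given above. With 2 libraries no relation between these genes could be tested.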

How the data were processed

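Polyadenylated RNA of 2 macrophage libraries, treated alike, was measured by RNA-seq. The members, roles and lists were chosen with earlier results of these data known. The deposited text files name assembly mm10 and GENCODE annotation M21 as their basis, and tools or versions for alignment and quantification were not stated there or in the labels. Per the file headers, the authors deposited expected counts, TPM and a posterior mean TPM per gene and transcript, in the layout RSEM writes, and estimated counts and TPM per transcript in a second table, in the layout kallisto writes. Entries that name no gene held 0.0891% and 0.0698% of the counts and were left out.

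Symbols and biotypes came from the transcript names, coordinates from GENCODE M21. Levels are TPM from the gene tables, with mean ± SD over the 2 libraries. Detection was 1 TPM or more in both. With 1 group, no test between conditions was possible. The libraries were compared by an exact two-sided binomial test on expected counts rounded to whole numbers, with effective sizes from TMM (edgeR 4.0.16), for genes with 20 or more counts, adjusted by Benjamini-Hochberg at 0.05; these p-values hold for sampling noise only, since nothing says that the biosamples came from separate animals. Intervals of ratios are exact 95% binomial intervals and, like the floor of 3 counts for a count of 0, cover the error of counting alone: the reads carried no molecular identifiers, and copies made by PCR count as separate reads. Shared sequence was counted as runs of 31 bases in the main transcript. Motifs were searched in RefSeq windows of GRCm38.p6.

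Named members were all catalytic, activator and inhibitor genes, the highest and lowest of each other role, those beyond 2-fold between libraries, those whose main transcript was not coding or took under 80% in both, those whose quantifications differed by over 1.5-fold, and those below 1 TPM in both. From each context list the 3 of highest mean TPM and 9 genes fixed by name were to be given, of which some are not reported here. Psmb4, Psmd10, Psmd9, Psmg3 and Psmd14 were named after their values were seen. Alternatives were other detection limits, the second quantification, posterior mean TPM, coding transcripts only, each library alone, library totals, DESeq2 1.42.0 size factors and other filters on counts. Genome and protein sequences were not used here.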

Additional observations from a re-analysis of the deposited data

How the results depend on the processing

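No paired analysis was possible because the 2 libraries form a single group. The comparison of libraries had no leave-one-out fit, since it needs both. In the second quantification the median TPM was 85.4 for the alpha ring, 89.2 for the beta ring without active sites, 75.2 for the constitutive and 61.1 for the immunoproteasome catalytic genes, 71.5 for the ATPases, 83.4 for the other base genes, 50.6 for the lid, 38.0 for activators and inhibitor and 10.8 for the chaperones, each lower than in the gene tables. Over coding transcripts only it was 102 for the alpha ring and 55.1 for the lid, the log2 ratio of Psmb8 to Psmb5 was 1.10, and the sum of Psmb9 and Psmb6 was 3.50 times the median of Psmb1 to Psmb4. Counting Psme2b with Psme2, an alternative chosen after seeing the data, gave 56.6 for activators and inhibitor. The mean log2 ratio of Psmb10 to Psmb7 ran from -0.49 without replicate 2 to 0.10 without replicate 1.

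The increase of the log2 ratio from replicate 1 to replicate 2, from expected counts without length scaling, was 0.31 for Psmb9 to Psmb6, 0.79 for Psmb10 to Psmb7 and 0.55 for the sums. For Psmb10 to Psmb7 it was 0.80 in the second quantification and 0.82 over coding transcripts, and for the sums 0.59 over coding transcripts. No alternative turned its direction. Members higher in replicate 2 numbered 4 in the second quantification, beside 28.5% of all genes tested there, and 0 beyond 2-fold, beside 6.72%. They numbered 4 without members that share 10% or more of their sequence runs (chosen after seeing the data) and 1 beyond 1.5-fold. Members lower numbered 20 with library totals, beside 19.5% of all genes tested, and 1 beyond 2-fold, beside 3.5%. Beyond 1.5-fold 1 member was lower. For the 1.5-fold limit and the shared runs the share over all genes was not computed. Where the difference was called in the main or the alternative setting, its sign turned for Psmd8 with library totals (0.042), and for Psmb8 (-0.084) and Psme2 (-0.011) in the second quantification; among named members not called in either, it turned for Psmb2 (0.055) and Psmb9 (0.0055) with library totals. With library totals the proteasome partners were 4 higher and 4 lower, the ubiquitin genes 2 higher and 6 lower, and the interferon signal 2 lower. Of all genes tested, 42.9% were then higher and 19.5% lower. In the second quantification the general median was itself lower, at -0.11. The causes were not tested. Under the alternatives, 100 other values and counts stayed within the spread between libraries, the counting interval or 1.5 times the count. Precision is limited by having 2 libraries, and for Psmc3ip, Psma8 and the chaperones also by depth.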
